A study of Mus musculus with 16 samples.

Results

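The comparison described here is the genotype by CD44 interaction in alveolar type 2 (AT2) cells: for each gene, the log2 change from CD44- to CD44+ cells in the count columns prefixed OG, less the same change in the columns prefixed R26, with the animal as a block. All 16 of the series' 16 libraries entered the fit. A positive interaction means that the CD44-associated change was more positive in OG, and a negative one that it was more positive in R26. Of 15516 genes tested, 4974 had an interaction at an adjusted p below 0.05 in a quasi-likelihood test by edgeR, adjusted by Benjamini-Hochberg. The interaction was higher in OG for 1449 genes (9.34%) and lower in OG for 3525 (22.7%), a split that depended on the scaling, as given below.

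The libraries are bulk RNA sequencing of AT2 cells sorted from mouse lung. The 4 groups are the CD44- and CD44+ fractions of each prefix, with 4 animals of each prefix (R26 animals 1, 2, 7 and 8, OG animals 3, 5, 6 and 7) and both fractions from each animal. The labels give the genotypes as SP-C WT and SP-C Mutant, where SP-C is surfactant protein C, the product of Sftpc, and give the treatment OG TMX for all 16 samples. No label ties a prefix to a genotype: R26 was read as the wild type and OG as the mutant, and if that reading is wrong, each interaction keeps its sign against the prefixes and changes it against the genotypes. The mutation, the driver of any recombinase, and the age and sex of the animals are not given in the sources used here. The gate for AT2 cells took viable Epcam+ cells with high CD200 that stained for none of CD104, CD31 and CD45, and CD44 then divided them.

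AT2 cells are the cuboidal alveolar cells that make surfactant, a lipid and protein film stored in lamellar bodies, and they renew the alveolus by giving rise to the flat alveolar type 1 (AT1) cells that exchange gas. On that path cells can pass through a transitional state, marked by claudin 4, keratin 8 and clusterin, that builds up in fibrotic lung. CD44 is a surface receptor for hyaluronan, a matrix sugar. Misfolded surfactant protein C is known to load the endoplasmic reticulum, and cells meet such loads with stress programmes that include ATF4 (amino acid supply and the integrated stress response), NRF2 (glutathione and redox enzymes) and the heat shock chaperones.

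Library totals ran from 9022471 to 21363816 counts, so that 3 counts, taken as the floor for low genes, are at most 0.333 CPM. Levels are CPM (a gene's counts scaled to a common library size) after TMM scaling, changes are fitted log2 changes ± SE, and adjusted p-values are over all genes tested. Sftpc was the defining AT2 gene and was high in each library, at 79590 ± 7872 CPM in R26 CD44- and 54360 ± 12250 in R26 CD44+ (SD, n = 4), and at 11680 ± 432 in OG CD44- and 6696 ± 684 in OG CD44+. Its interaction was -0.24 ± 0.09 (adjusted p = 0.0498), and the changes of single animals overlapped between the prefixes. On principal component 2 (24.7% of the variance), the CD44+ libraries of R26 animal 1 and OG animal 3 stood apart from the other CD44+ libraries of their prefix. By a mean chi-square per gene between pairs of libraries, R26 animal 2 stood out among the R26 CD44+ libraries instead. Its pairs gave 17.45 to 18.67, and those among R26 animals 1, 7 and 8 gave 7.76 to 11.75. In OG CD44+ the pairs of animal 3 gave 8.4 to 9.09 and the others 1.66 to 3.27. Without R26 animal 1 and OG animal 3, but with R26 animal 2 kept, 1347 interactions were higher and 3122 lower in OG.

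Cd44, the sorting antigen, was called higher in the CD44+ fraction of both prefixes. Its level was 326, 324, 330 and 334 CPM in the CD44- libraries of R26 animals 1, 2, 7 and 8 and 502, 387, 560 and 426 CPM in their CD44+ libraries. In OG animals 3, 5, 6 and 7 it was 593, 538, 567 and 549 CPM in CD44- and 905, 947, 906 and 897 CPM in CD44+. Each CD44+ library was above the CD44- library of its animal, and each of the 4 OG CD44- libraries lay above at least 3 of the 4 R26 CD44+ libraries. The rise was 0.50 ± 0.07 in R26 and 0.70 ± 0.07 in OG. The difference of 0.20 ± 0.10 did not pass the test (adjusted p = 0.18), so that the size of the Cd44 step itself was not shown to differ. It did pass under 7 of the 27 alternatives, among them each omission of an R26 animal. Those omissions also moved the median interaction of all genes, from -0.092 to between 0.021 and 0.03. With the TMM reference library kept, omission of R26 animal 1, 2 or 8 left that median at -0.098 to -0.093. Of the other 5 sorting antigens, 2 had a higher interaction (Epcam, 0.44 ± 0.06, and Itgb4, which encodes CD104, 0.90 ± 0.15) and 3 a lower one, among them Cd200 (-0.25 ± 0.06) and Ptprc, which encodes CD45 (-3.35 ± 0.49, at no more than 15.4 CPM in any library).

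The genes whose CD44 change went in opposite directions under the 2 prefixes included many of the stress programmes named above. The promoters of some of them hold letters that match the elements through which those programmes are known to act. The stretches below are from RefSeq (GRCm38.p6, the mm10 primary sequence), 120 bases each, upstream of a RefSeq transcript start and written 5′ to 3′ on the gene's strand, with the matched letters in capitals. For ATF4 the core of the C/EBP-ATF response element, TGATGNAA, was searched, for NRF2 the antioxidant response element core TGACNNNGC, and for heat shock factor 1 a run of 3 alternating GAA and TTC units with 2 free bases between them, each on both strands of the 250 bases before the start. Slc7a11 has a pair of C/EBP-ATF cores, beginning 66 and 47 bases before the start (chr3:50443614-50443733), and Chac1 has 1 at 193 bases (chr2:119350993-119351112). The antioxidant core lies 134 bases before a start of Gclm (chr3:122245368-122245487) and 92 before a start of Txnrd1 (chr10:82859059-82859178). Hspd1 and Hspe1, which encode the paired mitochondrial chaperonins, share a divergent promoter (chr1:55088008-55088127) in which matches of the heat shock element overlap into a run of alternating units. The starts are those of the RefSeq promoter table, and for Slc7a11, Gclm, Txnrd1 and Hspd1 the start used lies inside the gene's listed span, which begins further upstream.
Slc7a11: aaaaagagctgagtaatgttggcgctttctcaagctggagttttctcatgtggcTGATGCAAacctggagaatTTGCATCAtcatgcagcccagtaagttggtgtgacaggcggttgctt
Chac1: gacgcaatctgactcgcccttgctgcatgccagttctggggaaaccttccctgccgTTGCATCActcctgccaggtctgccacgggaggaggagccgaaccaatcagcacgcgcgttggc
Gclm: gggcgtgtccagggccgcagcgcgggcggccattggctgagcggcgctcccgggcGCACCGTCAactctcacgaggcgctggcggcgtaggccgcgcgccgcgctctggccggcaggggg
Txnrd1: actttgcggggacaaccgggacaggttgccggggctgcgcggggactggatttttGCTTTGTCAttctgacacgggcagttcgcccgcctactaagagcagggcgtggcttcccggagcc
Hspd1: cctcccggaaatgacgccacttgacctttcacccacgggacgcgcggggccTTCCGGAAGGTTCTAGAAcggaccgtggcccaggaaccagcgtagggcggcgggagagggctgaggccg

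A match is a description of the letters and not a site of binding. Of the 11498 tested genes with a promoter in the table, 14% held the antioxidant core, 2.44% the C/EBP-ATF core and 0.444% the heat shock element. Among the NRF2 targets with a promoter the antioxidant core stood in 7 of 29 (24.1%), and among the ATF4 targets the C/EBP-ATF core stood in 5 of 25 (20%, Asns, Chac1, Nupr1, Slc7a11 and Vldlr). The heat shock element stood in 2 of the 13 heat shock genes with a promoter (15.4%, Hspd1 and Hspe1). Of the genes that rose in R26 and fell in OG, 14.9% held the antioxidant core, near the 14% of all genes, and 4.05% the C/EBP-ATF core. The 7 NRF2 targets with the antioxidant core were G6pdx, Gclm, Mgst1, Nfe2l2, Prdx1, Sod1 and Txnrd1. Srxn1, Gclc and Nqo1 are not among them. The stretches shown were taken from genes that hold a match, and a part of these elements in the reversals was not tested.

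In R26, 3629 genes (23.4%) were called higher and 2969 (19.1%) lower in CD44+ cells, and in OG 3788 (24.4%) were called higher and 4785 (30.8%) lower. The 4974 called interactions fell into several shapes. The most frequent was a fall called in OG alone, with 1286 genes (25.9% of the called), followed by a rise in both prefixes that was smaller in OG (841 genes, 16.9%). A rise called in OG alone had 583 genes, a rise called in R26 alone 533, a deeper fall in OG 531, and a fall called in R26 alone 374. The change reversed in 472 genes: 284 (1.83% of those tested) rose in R26 and fell in OG, and 188 (1.21%) fell in R26 and rose in OG. Among the 6779 genes with at least 16 CPM in both CD44- groups, 2719 were called, and there the rise smaller in OG had 75 genes and the fall called in OG alone 919.

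Of the called interactions, 183 were at least 2-fold higher and 1260 at least 2-fold lower in OG. The split of the smaller ones depended on the scaling. With DESeq2's size factors it was 1953 higher and 2832 lower, with total counts only 974 and 4517, and with TMM computed against OG animal 7 CD44- as the reference library 2998 and 2179. The TMM of the main fit took R26 animal 7 CD44+ as its reference. With any R26 library as reference the median interaction was -0.117 to -0.061, and lower calls prevailed. With any OG library it was 0 to 0.063, and higher calls prevailed except with OG animal 3 CD44+ (2253 higher and 2600 lower). The split thus followed the prefix of the reference library. The median interaction of all genes moved from -0.168 to 0.063 over these scalings and was -0.092 with the one used, so differences of that order have no settled sign and lists are read against that median. A minimum of 1.5-fold left 105 higher and 877 lower, and 141 and 776 with DESeq2's size factors, so that larger differences were mostly lower in OG under both. Reversals were compared over 5 scalings: the one used, DESeq2's size factors, upper quartile, total counts only and TMM against OG animal 7 CD44-. Under all 5, 140 of the 284 and 75 of the 188 reversed genes remained reversed.

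**Figure D1:**
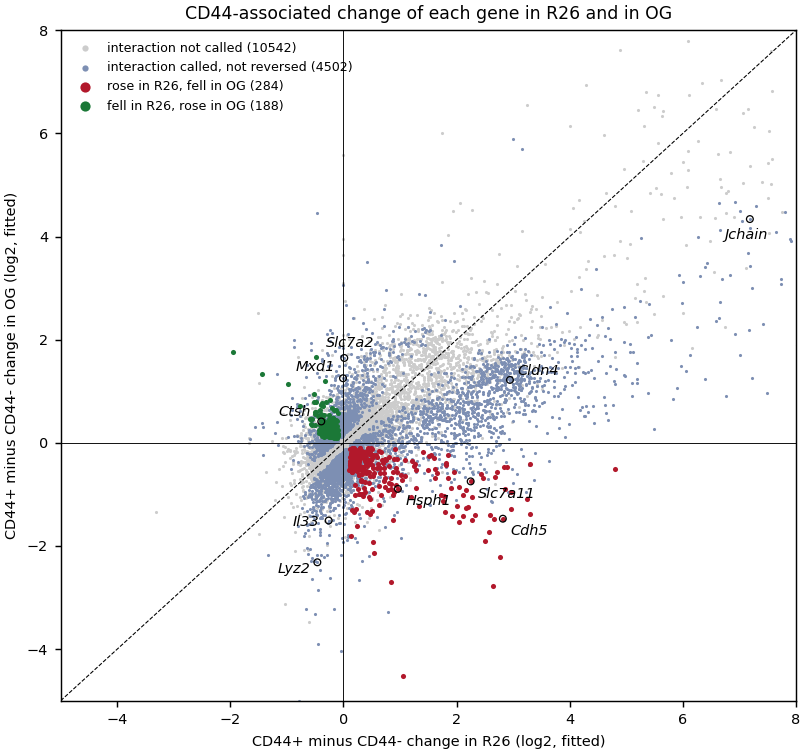
Fitted log2 change from CD44- to CD44+ in R26 (horizontal) and in OG (vertical) for each tested gene, with the line of equal change dashed and 48 genes outside the axes. Reversed genes fill the lower right (284 genes that rose in R26 and fell in OG) and the upper left (188 genes that fell in R26 and rose in OG), and most large rises in R26 lie under the dashed line.

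Genes of glutathione and redox defence were among the clearest reversals. Of 36 tested NRF2 targets and glutathione genes, 24 had a lower interaction in OG and none a higher one, with a median of -0.37 against -0.092 over all genes, and 11 rose in R26 and fell in OG. With the scalings named above, 17 to 26 of the 36 were lower and 0 to 4 higher, and 6 to 11 reversed. In R26, 18 members rose and 7 fell with CD44, whereas in OG 4 rose and 26 fell. The R26 side depended on the scaling, with 17 risen and 11 fallen under DESeq2's size factors and 14 and 13 with the OG reference library, where the R26 median was -0.008.

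Slc7a11 (chr3:50364936-50499087) encodes the cystine transporter that feeds glutathione synthesis. It was at 1.21, 0.50, 1.12 and 1.03 CPM in the CD44- libraries of R26 animals 1, 2, 7 and 8 and at 4.68, 4.16, 6.28 and 3.58 CPM in their CD44+ libraries. In OG animals 3, 5, 6 and 7 it was at 542, 626, 617 and 603 CPM in CD44- and at 315, 372, 365 and 372 CPM in CD44+. Each R26 animal was higher in CD44+ and each OG animal lower, and no OG library came near the R26 levels. The R26 CD44- libraries held 54 counts of Slc7a11 in sum, so the size of its rise in R26 rests on few counts. The changes were 2.25 ± 0.16 in R26 and -0.75 ± 0.04 in OG, a difference of -2.996 ± 0.17 (adjusted p = 2.01e-18).

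Srxn1 (chr2:152105524-152111376), sulfiredoxin, which restores oxidised peroxiredoxins, followed the same shape. Its R26 CD44- libraries were at 19.1, 19.7, 20 and 21.6 CPM and its R26 CD44+ libraries at 31.2, 38.6, 32.9 and 41.7 CPM, while OG went from 653, 741, 726 and 738 CPM in CD44- to 378, 417, 429 and 423 CPM in CD44+. The fractions did not overlap within either prefix. The rise of 0.84 ± 0.06 in R26 and the fall of 0.79 ± 0.04 in OG differed by -1.63 ± 0.07 (adjusted p = 7.75e-22).

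Gclm (chr3:122245487-122267215), the regulatory subunit of the enzyme that starts glutathione synthesis, went from 11.8 ± 0.41 to 19.9 ± 2.83 CPM in R26 and from 137 ± 3.06 to 85.2 ± 7.59 CPM in OG (SD, n = 4). The interaction was -1.43 ± 0.10, and the catalytic subunit Gclc had -0.78 ± 0.06 with changes of 0.30 in R26 and -0.48 in OG. Nqo1, a quinone reductase, changed by 1.25 in R26, where 3 of the 4 animals rose, and by -0.44 in OG. Txnrd1, thioredoxin reductase, changed by 0.16 in R26 and -0.44 in OG, and it is not among the genes that stayed reversed under every scaling. Gsta1 and Gsta2, glutathione transferases, also reversed, but they are near-identical copies between which the authors' counting could divide reads. The regulator Nfe2l2 and Hmox1 did not pass the interaction test.

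ATF4 targets and genes of amino acid supply behaved alike. Of 29 tested members, 22 were lower in OG and 1 higher, with a median interaction of -0.78. In R26, 14 rose and 8 fell, and in OG 2 rose and 22 fell, while with the OG reference library 13 rose and 10 fell in R26. The 10 reversed members were Ddit3, Chac1, Asns, Shmt2, Mthfd2, Slc7a11, Slc7a1, Slc1a4, Atf5 and Gdf15. Across the scalings 19 to 23 members were lower, and 7 to 10 reversed. Slc7a11 stands on both lists.

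Atf5 (chr7:44812256-44816658), a transcription factor of the mitochondrial and amino acid stress responses, was at 32.2, 37.8, 29.5 and 32.1 CPM in R26 CD44- and 63.1, 46.6, 41.0 and 52.6 CPM in R26 CD44+. In OG it was at 160, 170, 169 and 169 CPM in CD44- and at 93.5, 92.0, 92.7 and 95.0 CPM in CD44+. The 4 OG CD44+ libraries sat close together above every R26 library and below every OG CD44- library. The interaction was -1.46 ± 0.09 (adjusted p = 1.02e-11).

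Mthfd2 (chr6:83305704-83326011), a mitochondrial enzyme of one-carbon metabolism, went from 1.44 ± 0.254 to 3.27 ± 0.969 CPM in R26 and from 58.9 ± 3.93 to 28.5 ± 2.44 CPM in OG. The changes of 1.19 ± 0.20 and -1.05 ± 0.07 differed by -2.24 ± 0.21. Chac1, which degrades glutathione, went from 1.76 ± 0.316 to 2.79 ± 0.793 CPM in R26 and from 31.1 ± 3.06 to 15.5 ± 1.56 CPM in OG, an interaction of -1.68 ± 0.23. In R26 these genes were low in both fractions, so their rises there rest on few counts. Ddit4, a brake on mTOR signalling, was the exception, with an interaction of 0.72 ± 0.07 and changes of 0.08 in R26 and 0.80 in OG.

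The tRNA synthetases, which charge amino acids and are largely ATF4-driven, were lower in OG for 13 of 19 members and higher for none (median -0.40). In R26 2 rose and 2 fell, and 15 fell in OG, among them Eprs (interaction -0.70 ± 0.06) and Aars (-0.49 ± 0.06). The unfolded protein response and endoplasmic reticulum chaperones mostly fell under both prefixes. In R26 14 of 29 members fell and 1 rose, and in OG 18 fell and 1 rose. Their interaction was higher in OG for 3 and lower for 10, with a median of 0.01 against -0.092 over all genes. The split turned to 13 higher and 3 lower with the OG reference library. Ern1, the IRE1 sensor, was lower in OG by -0.60 ± 0.07, and Herpud1, of the degradation machinery, higher by 0.32 ± 0.06.

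Heat shock chaperones had 17 of 18 members lower in OG and 1 higher, with a median of -0.63. In R26 11 rose and none fell, in OG 1 rose and 14 fell, and 7 reversed (Hspb1, Hsp90ab1, Hsph1, Hspd1, Bag3, Chordc1 and Cryab). Across the scalings 14 to 17 members were lower, and 4 to 9 reversed. In R26, DESeq2's size factors gave 8 risen and 2 fallen and the OG reference library 6 and 3. The exception was Hspa1a (0.33 ± 0.06), whose reads could be divided with its near-identical neighbour Hspa1b.

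Hsph1 (chr5:149616843-149636498), the Hsp110 exchange factor of Hsp70, had the largest interaction of the list. Its CD44- libraries were at 58.8, 36.8, 63.0 and 41.2 CPM in R26 animals 1, 2, 7 and 8, and the matching CD44+ libraries at 112, 59.1, 132 and 88.9 CPM. In OG it fell from 242, 255, 253 and 254 CPM to 136, 139, 134 and 131 CPM. The R26 fractions overlapped between animals, but within each R26 animal CD44+ was the higher. The rise of 0.96 ± 0.05 and the fall of 0.89 ± 0.05 differed by -1.86 ± 0.07 (adjusted p = 1.75e-23). Hspd1 went from 42.4 ± 5.39 to 52.7 ± 10.8 CPM in R26 and from 134 ± 4.78 to 79.7 ± 2.54 CPM in OG (interaction -1.06 ± 0.07). Hspb1, a small heat shock protein, had an interaction of -1.21 ± 0.10, but its rise of 0.21 ± 0.07 in R26 was not called under every scaling.

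**Figure D2:**
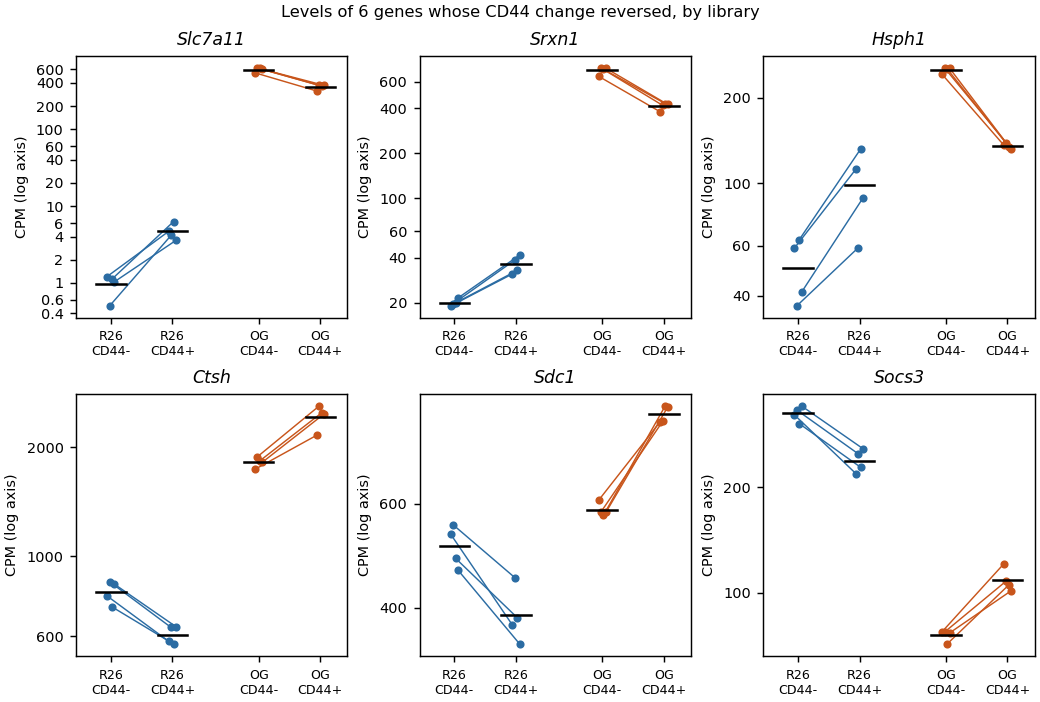
Level in each library (CPM after TMM scaling, log axis) of 6 reversed genes, with a line joining the CD44- and CD44+ libraries of an animal and black bars at the group means (n = 4). The stress genes Slc7a11, Srxn1 and Hsph1 rose in each R26 animal and fell in each OG animal from a higher start, and Ctsh, Sdc1 and Socs3 did the opposite.

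The reversed genes chosen for the size of their smaller change also included Ptprn, Ntn1, Unc5b, Vipr2 and Sprr1a. Ptprn, a protein of dense secretory granules, was at 3.86, 4.50, 5.39 and 5.30 CPM in R26 CD44- and at 8.62, 5.82, 8.17 and 11.2 CPM in R26 CD44+. In OG it went from 563, 596, 619 and 611 CPM to 290, 325, 337 and 334 CPM, and the interaction was -1.73 ± 0.11 (adjusted p = 6.33e-16). Again the OG libraries were far above the R26 libraries in both fractions, and the fall left OG CD44+ well above R26.

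Ntn1, the guidance ligand netrin 1, rose from 59.9 ± 8.84 to 98.2 ± 4.26 CPM in R26 and fell from 94.5 ± 1.92 to 56.6 ± 4.19 CPM in OG, so that the fractions traded places between prefixes. Its receptor Unc5b changed the same way, by 1.03 in R26 and -0.72 in OG. Vipr2, a receptor of vasoactive intestinal peptide, changed by 0.92 and -0.82. Sprr1a, a cornified envelope precursor, went from 3.58 ± 0.569 to 6.61 ± 1.11 CPM in R26 (change 0.88 ± 0.29, adjusted p = 0.0446) and from 212 ± 31.4 to 76.0 ± 21.2 CPM in OG (change -1.5 ± 0.12).

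The 188 genes that fell in R26 and rose in OG had smaller changes. With a 1.5-fold minimum on each test, 1 of them remained, against 20 of the genes that rose in R26 and fell in OG. The 10 with the largest smaller change were Nrep, Socs3, Wipf3, Rflnb, Cd276, Tmem98, Ctsh, Sdc1, Pfkl and Adgrg1, with interactions of 0.80 to 1.08, and all 10 remained reversed under all 5 scalings.

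Ctsh (chr9:90054267-90076095), cathepsin H, which trims surfactant protein precursors, was at 776, 850, 724 and 836 CPM in R26 CD44- and 582, 635, 572 and 638 CPM in R26 CD44+. In OG it was at 1739, 1884, 1836 and 1819 CPM in CD44- and 2159, 2601, 2490 and 2473 CPM in CD44+. Within both prefixes the fractions were fully separated, in opposite order. The fall of 0.39 ± 0.04 and the rise of 0.41 ± 0.04 differed by 0.81 ± 0.06 (adjusted p = 2.68e-15).

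Sdc1 (chr12:8771396-8793716), syndecan 1, a heparan sulfate proteoglycan of epithelia that also marks plasma cells, was at 533, 553, 485 and 463 CPM in R26 CD44- and 374, 450, 385 and 347 CPM in R26 CD44+. It rose in OG from 609, 582, 574 and 581 CPM to 827, 828, 879 and 875 CPM. OG CD44+ lay above every other library. The interaction was 0.93 ± 0.06 (adjusted p = 7.72e-17).

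Socs3 (chr11:117966079-117970336), which ends cytokine signalling through STAT3, was highest in R26 CD44-, at 323, 333, 304 and 342 CPM, and stood at 219, 249, 228 and 258 CPM in R26 CD44+. In OG it was at 77.3, 77.1, 71.2 and 76.6 CPM in CD44- and at 121, 108, 105 and 101 CPM in CD44+. Its order across the groups thus differed from that of Ctsh and Sdc1, since every OG library was below every R26 library. The changes of -0.45 ± 0.04 and 0.52 ± 0.05 differed by 0.97 ± 0.06.

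**Figure D3:**
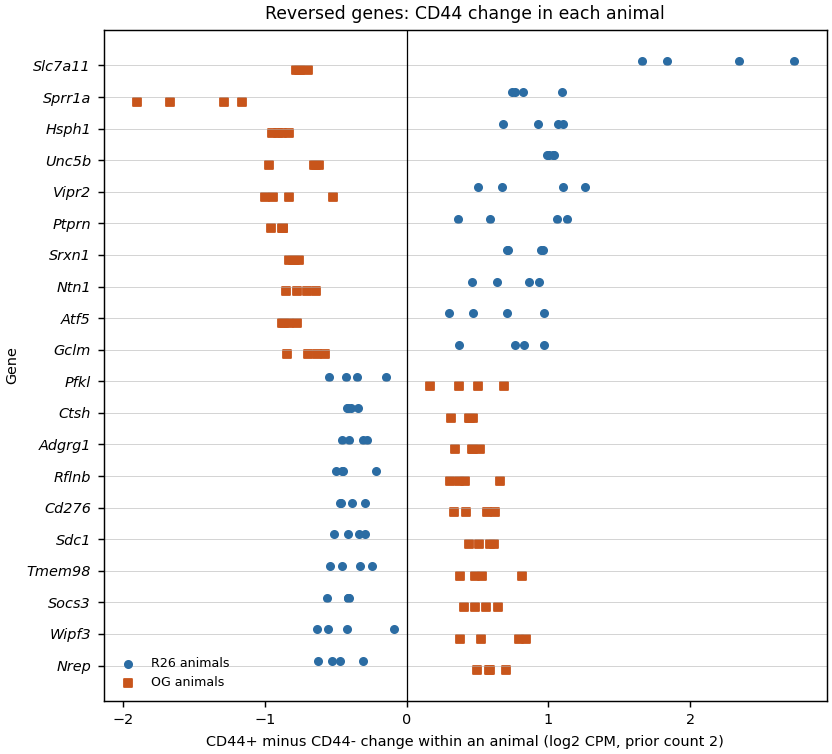
Log2 change from CD44- to CD44+ within each animal (log2 CPM, prior count 2) for the 10 reversed genes in each direction with the largest smaller change, circles for the 4 R26 animals and squares for the 4 OG animals. For all 20 genes the animals of a prefix share a sign, opposite to that of the other prefix.

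Among genes that changed in OG alone, Mxd1 (chr6:86647044-86669234) was the clearest. It encodes a partner of MAX that opposes MYC and was at 85.6, 86.8, 87.2 and 85.7 CPM in R26 CD44- and at 93.5, 83.4, 90.0 and 77.2 CPM in R26 CD44+. In OG it was at 88.1, 76.7, 81.0 and 76.5 CPM in CD44- and 215, 191, 183 and 180 CPM in CD44+. OG CD44+ alone stood apart, and the other 3 groups overlapped. The change was -0.01 ± 0.05 in R26 and 1.25 ± 0.05 in OG, a difference of 1.26 ± 0.07 (adjusted p = 5.22e-19).

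Cd24a, an epithelial surface glycoprotein, rose under both prefixes, by 0.64 ± 0.08 in R26 (63.4 ± 9.69 to 98.6 ± 18.2 CPM) and by 1.90 ± 0.07 in OG (74.5 ± 3.01 to 279 ± 25.5 CPM). Slc7a2, a cationic amino acid transporter, was at 28.0, 38.7, 23.9 and 39.4 CPM in R26 CD44- and 26.7, 42.2, 24.5 and 38.4 CPM in R26 CD44+, with R26 animals 2 and 8 the highest in both fractions. In OG it rose from 8.88, 12.0, 11.9 and 10 CPM to 38.3, 31.7, 29.7 and 34.5 CPM, which is the R26 range. Its interaction of 1.63 ± 0.13 was the largest positive one among genes with a mean log2 CPM of at least 4. Tgfbi, a matrix protein induced by TGF-beta, changed by -0.32 ± 0.06 in R26 and 1.19 ± 0.07 in OG (interaction 1.51 ± 0.09), and Rgs16, which dampens G protein signalling, by 0.14 and 1.71.

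Immediate early genes, the first transcripts induced by growth factors and stress, were higher in OG for 14 of 28 members and lower for 3, with a median of 0.26. Across the scalings 10 to 15 were higher and 2 to 4 lower. In R26 18 rose and 2 fell with CD44, and in OG 23 rose and 1 fell. Junb, an AP-1 subunit, was at 774 ± 14.2 CPM in R26 CD44- and 762 ± 54.3 in R26 CD44+, and at 136, 132, 126 and 133 CPM in OG CD44- and 378, 244, 250 and 270 CPM in OG CD44+. OG animal 3 was the highest of the OG CD44+ libraries, and each was still below every R26 library. The interaction was 1.12 ± 0.13 (adjusted p = 0.000324). Fos changed by 0.15 in R26 and 1.11 in OG. The 3 exceptions were Fosl1 (-1.65 ± 0.23), which rose in R26 and fell in OG, Myc (-0.95 ± 0.10) and Nr4a3 (-0.48 ± 0.18).

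NF-kappaB targets, chemokines and alarmins split, with 7 of 29 higher and 9 lower. Nfkbia, the inhibitor induced by NF-kappaB, rose by 0.36 ± 0.06 in R26 (236 ± 38.9 to 304 ± 48.5 CPM) and by 1.51 ± 0.06 in OG (73.4 ± 6.61 to 212 ± 47.8 CPM), and again OG animal 3 was the highest OG CD44+ library. Csf2, the cytokine GM-CSF on which surfactant clearance depends, changed by -0.22 in R26 and 1.5 in OG (interaction 1.72 ± 0.18), and Csf1 by 0.53 and 1.29. Il33, an alarmin held in AT2 nuclei, went the other way. It was at 544, 469, 525 and 473 CPM in R26 CD44- and 409, 416, 466 and 387 CPM in R26 CD44+, and at 332, 324, 340 and 331 CPM in OG CD44- and 134, 112, 111 and 111 CPM in OG CD44+. The OG CD44+ libraries were the lowest, and the falls of 0.26 ± 0.04 and 1.51 ± 0.05 differed by -1.25 ± 0.06 (adjusted p = 2.06e-17). Lcn2 was lower too (-0.68 ± 0.06).

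The EGFR ligands, receptors and ERK feedback genes were higher in OG for 8 of 24 and lower for 3 (median 0.14). Dusp6, an ERK phosphatase, changed by -0.26 in R26 and 0.42 in OG, Erbb3 by -0.30 and 0.14, and Ier3 by 0.68 and 1.13. Etv5, an ERK-dependent factor of AT2 identity, fell under both prefixes, by 0.69 in R26 and 1.08 in OG.

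AT2 identity and surfactant genes fell with CD44 under both prefixes, 29 of 31 in R26 and 28 in OG. The interaction was lower in OG for 19 and higher for 2 (median -0.38), 13 to 19 lower across the scalings, and 9 higher in place of 2 with the OG reference library. The summed level of the list was 209100 to 236200 CPM in R26 CD44-, 137900 to 196100 in R26 CD44+, 72850 to 76710 in OG CD44- and 36710 to 41880 in OG CD44+. In bulk libraries fewer cells of a type and less RNA per cell cannot be told apart.

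Lyz2, the lysozyme of AT2 cells and macrophages, was at 25010, 27960, 22950 and 24590 CPM in R26 CD44- and 16360, 23630, 16960 and 16730 CPM in R26 CD44+, with R26 animal 2 the highest in each fraction. In OG it fell from 4915, 5627, 5481 and 5524 CPM to 1110, 1086, 1084 and 1043 CPM. The falls of 0.46 ± 0.05 and 2.32 ± 0.06 differed by -1.85 ± 0.07 (adjusted p = 1.13e-21). Its neighbour Lyz1, near-identical and so uncertain, had -2.04 ± 0.07.

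Sftpa1, surfactant protein A, fell by 0.55 ± 0.05 in R26 (18540 ± 797 to 12690 ± 1493 CPM) and by 1.56 ± 0.05 in OG (7491 ± 257 to 2541 ± 146 CPM), an interaction of -1.01 ± 0.07, larger than that of Sftpc. Acoxl, a relative of the peroxisomal acyl-CoA oxidases, fell from 496 ± 52.9 to 342 ± 85.9 CPM in R26 and from 83.5 ± 7.35 to 13.4 ± 0.897 CPM in OG (interaction -2.08 ± 0.14). Hc, complement C5, fell by 0.42 and 1.78. The higher members were Ctsh, described above, and Foxa2, a lung lineage factor (0.31 ± 0.07).

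Of 24 cholesterol genes, 13 were higher in OG and 1 lower (median 0.21), and 11 to 17 were higher across the scalings. All called members fell in R26 (22), and in OG 14 fell and 2 rose. Hsd17b7, a sterol reductase, changed by -0.31 and 0.78, and Pmvk was the exception (-0.63 ± 0.06). Of 31 fatty acid and phospholipid genes, 4 were higher and 11 lower, a split that turned to 10 and 8 with the OG reference library. Acaca, the first committed enzyme of fatty acid synthesis, fell by 0.32 in R26 and 0.86 in OG, and Gpam, the first enzyme of glycerolipid synthesis, by 0.23 and 0.90.

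Most AT1 markers rose with CD44 under both prefixes, and most called interactions were lower in OG, as over all genes (3525 of 4974). Of 24, 20 rose and 2 fell in R26, 15 rose and 3 fell in OG, and the interaction was lower in OG for 15 and higher for 5 (median -0.48). The summed level was 6186 to 6749 CPM in R26 CD44- and 8155 to 8943 in R26 CD44+, against 13050 to 14000 and 15580 to 17010 CPM in OG. Rtkn2, an AT1 marker, was at 29.6, 24.1, 26.2 and 28.0 CPM in R26 CD44- and 100, 78.0, 87.0 and 117 CPM in R26 CD44+, and fell in OG from 77.0, 64.2, 63.0 and 64.0 CPM to 53.6, 53.2, 48.8 and 49.7 CPM. The fractions were separated in both prefixes, and the interaction of -2.20 ± 0.08 was the most negative among called genes with at least 16 CPM in both CD44- groups.

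Spock2, a matrix proteoglycan of AT1 cells, went from 35.3 ± 0.983 to 150 ± 22.9 CPM in R26 and was at 39.0 ± 1.46 and 40.4 ± 3.84 CPM in OG (changes 2.08 ± 0.06 and 0.05 ± 0.06). Cav1, the caveolae protein of AT1 and endothelial cells, went from 39.1 ± 2.72 to 147 ± 35.0 CPM in R26 and was at 112 ± 2.01 and 107 ± 2.99 CPM in OG (interaction -1.96 ± 0.09). Pdpn, podoplanin, changed by 1.95 in R26 and 0.28 in OG. The exceptions included Cldn18, a claudin of both alveolar types (0.57 ± 0.06), and Gprc5a (0.41 ± 0.06). Endothelial markers, some of which AT1 cells share, rose in R26 CD44+ as well, as given below, and their part in the AT1 result was not tested.

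Transitional alveolar state markers rose under both prefixes, 29 of 38 in each, and their interactions split, with 11 higher and 17 lower. The summed level was 3162 to 3563 CPM in R26 CD44- and 3630 to 4601 in R26 CD44+, and 13000 to 13750 and 20740 to 21040 CPM in OG. Cldn4, claudin 4, was at 2.82, 1.83, 2.63 and 3.29 CPM in R26 CD44- and 23.5, 15, 22.8 and 20.7 CPM in R26 CD44+. In OG it was at 352, 343, 342 and 336 CPM in CD44- and 869, 760, 793 and 781 CPM in CD44+. On the log scale the step was the larger in R26 (2.94 ± 0.09 against 1.22 ± 0.04, interaction -1.72 ± 0.11), while in CPM the step was the larger in OG.

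Clu, clusterin, a secreted chaperone, had the opposite sign, from 410 ± 28.7 to 516 ± 83.8 CPM in R26 and from 4543 ± 277 to 8511 ± 121 CPM in OG (interaction 0.59 ± 0.07). Retnla (0.99 ± 0.09), Tnfrsf12a (0.42 ± 0.08) and Krt18, a simple epithelial keratin (0.28 ± 0.06), were higher too.

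**Figure D4:**
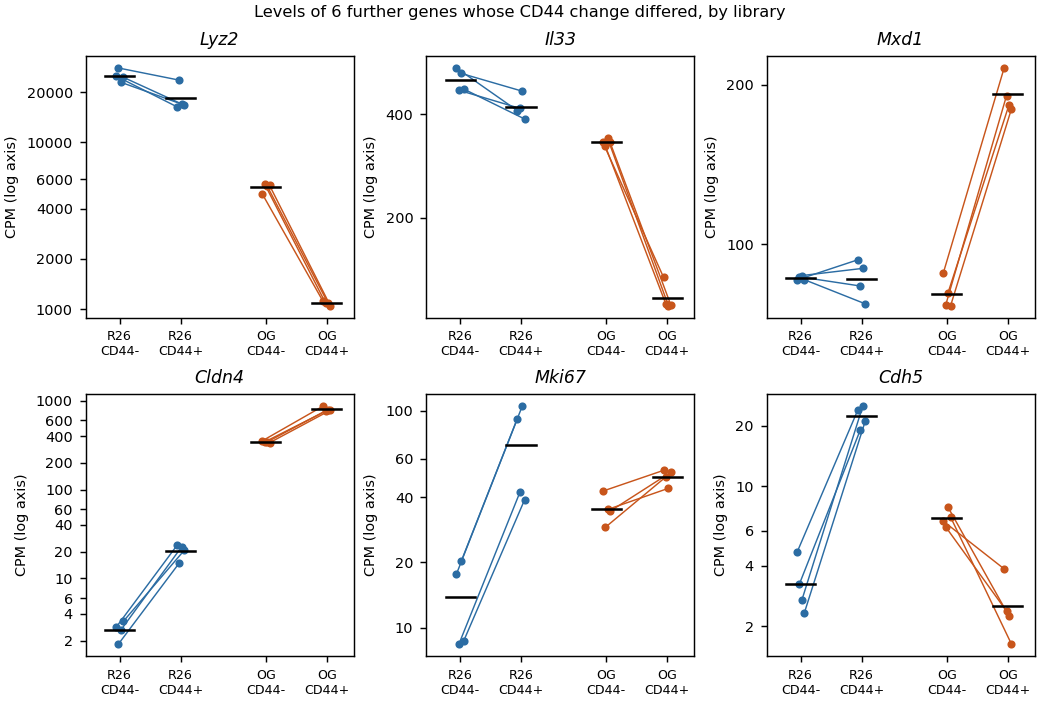
Level in each library (CPM after TMM scaling, log axis) of 6 further genes, with a line joining the fractions of an animal and black bars at the group means (n = 4). Lyz2 and Il33 fell more in OG, Mxd1 rose in OG alone, Cldn4 and Mki67 rose more in R26, and Cdh5 rose in R26 and fell in OG.

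Cell cycle genes rose with CD44 in 26 of 40 members in R26 and 29 in OG, and the rise was of unequal size: 20 interactions were lower in OG and 2 higher (median -0.44). Mki67, the Ki-67 proliferation antigen, went from 17.7, 8.41, 20.3 and 8.72 CPM to 92.1, 42.0, 105 and 39.0 CPM in R26 animals 1, 2, 7 and 8, and from 42.6, 29.0, 35.1 and 34.5 CPM to 53.2, 49.7, 44.0 and 52.1 CPM in OG. R26 animals 1 and 7 were above animals 2 and 8 in both fractions, and each rose by a similar factor. The rises of 2.32 ± 0.08 and 0.50 ± 0.07 differed by -1.83 ± 0.10 (adjusted p = 4.34e-18). Ccna2 (-1.88 ± 0.19) and Cdk1 (-1.91 ± 0.23) were alike, and Ccnd1, cyclin D1, was an exception (0.35 ± 0.06).

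Marker genes of vessels, stroma and blood cells had large negative interactions. Of 24 endothelial markers, 23 were lower in OG and none higher (median -2.94). In R26 23 rose and 1 fell with CD44, in OG 2 rose and 12 fell, and 11 reversed, although the gate excluded CD31. Their summed level was 153.3 to 183.1 CPM in R26 CD44-, 290.4 to 344.3 in R26 CD44+, 228.3 to 240.9 in OG CD44- and 135.7 to 166.9 in OG CD44+, and none was at 0 in a whole group. A large share of these sums is Esam, which stood at 90.7 to 151 CPM as a mean of each group.

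Cdh5, VE-cadherin, which defines endothelium, was at 4.67, 3.25, 2.70 and 2.33 CPM in R26 CD44- and 24.1, 19.1, 25.1 and 21.1 CPM in R26 CD44+, and at 6.69, 6.27, 7.84 and 7.02 CPM in OG CD44- and 3.86, 2.38, 2.24 and 1.63 CPM in OG CD44+. The R26 CD44+ libraries were the highest, and OG animal 3 was the highest of the OG CD44+ group. The interaction was -4.29 ± 0.25 (adjusted p = 2.91e-16). Pecam1, which encodes the CD31 of the gate, went from 3.88 ± 1.08 to 18 ± 1.86 CPM in R26 and from 4.65 ± 0.598 to 3.56 ± 2.92 CPM in OG, where its change of -0.49 ± 0.39 was not called.

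Of 28 fibroblast and mural markers, 26 rose with CD44 in R26 and 23 in OG, and 19 interactions were lower in OG and 1 higher (median -1.5). Their summed level was 1192 to 1270 CPM in R26 CD44- and 2701 to 4339 in R26 CD44+, and 2766 to 2820 and 4503 to 6646 CPM in OG. Without R26 animal 1 and OG animal 3, 25 were lower. Tnxb, tenascin X of connective tissue, which is not on the list, went from 14.9 ± 1.11 to 113 ± 30.9 CPM in R26 and from 43.1 ± 3.18 to 31.6 ± 7.15 CPM in OG, an interaction of -3.36 ± 0.12. Dcn, the collagen-binding decorin, rose by 3.34 and 0.62, and Col1a1 by 3.12 ± 0.22 and 1.22 ± 0.17. The 5 mesothelial markers were all lower, among them Upk3b (-2.81 ± 0.27). All 5 rose with CD44 in R26, while in OG 2 rose and 3 fell. Their summed level was 71.72 to 76.92 CPM in R26 CD44-, 182.7 to 207.8 in R26 CD44+, 464.9 to 477.8 in OG CD44- and 707.5 to 783.4 in OG CD44+. The 3 that fell in OG, Upk3b, Lrrn4 and Gpm6a, had means of at most 4.52 CPM in each OG fraction. They are thus a small part of the OG sums.

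Of 13 lymphocyte and plasma cell markers tested, 11 rose and 1 fell with CD44 under each prefix, with 6 interactions lower in OG and 1 higher. Jchain, the joining chain of secreted antibodies, went from 2.01, 1.5, 1.38 and 0.646 CPM to 212, 290, 146 and 164 CPM in R26, and from 15.2, 8.36, 8.47 and 8.52 CPM to 402, 148, 149 and 152 CPM in OG. OG animal 3 was the highest OG library in both fractions. The CD44+ levels overlapped between the prefixes, and the lower start in R26 set the interaction of -2.85 ± 0.27. The summed level of the list was 484.0 to 587.9 CPM in R26 CD44-, 1981 to 4298 in R26 CD44+, 661.8 to 760.1 in OG CD44- and 2257 to 4853 in OG CD44+. It includes Sdc1, and Trbc2, Iglc2 and Gzma were at 0 in each R26 CD44- library, which allows up to 0.333 CPM.

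Of 19 macrophage and monocyte markers, 11 were lower in OG and 1 higher, Mpeg1 (0.50 ± 0.11). The summed level was 2802 to 2933 CPM in R26 CD44-, 1930 to 2578 in R26 CD44+, 316.4 to 363.9 in OG CD44- and 166.7 to 207.5 in OG CD44+. Lyz1, which AT2 cells express, made up most of it in R26 (mean 2487 CPM in CD44- and 1866 in CD44+) but not in OG CD44+ (mean 34.3 CPM), and Marco was at 0 in both R26 groups and Tyrobp in R26 CD44-. The 7 neuroendocrine and tuft cell markers had 4 lower and none higher, and the 3 neutrophil, mast cell and eosinophil markers had no call. The part of these cell types in the gene groups above was not tested.

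Ciliated cell markers were higher in OG where they differed, and club cell markers went both ways. Of 20 ciliated cell markers, 15 rose in R26 and 19 in OG, and 9 interactions were higher and none lower (median 0.50). Their summed level was 502.1 to 620.5 CPM in R26 CD44-, 806.6 to 1225 in R26 CD44+, 1023 to 1061 in OG CD44- and 1566 to 2004 in OG CD44+. Dnah5, an axonemal dynein, rose by 1.53 and 2.19 (interaction 0.66 ± 0.13), while Foxj1, the ciliated cell factor, had 0.40 ± 0.24 and did not pass (adjusted p = 0.269). Of 14 club and secretory markers, 4 were higher and 2 lower. Muc5b, an airway mucin, went from 10.1 ± 1.09 to 28.2 ± 11.2 CPM in R26 and from 7.91 ± 0.867 to 57.6 ± 5.25 CPM in OG (interaction 1.42 ± 0.33, adjusted p = 0.0177). The club list summed to 1063 to 1774 CPM in R26 CD44- and 2325 to 3913 in R26 CD44+, against 1063 to 1196 and 2506 to 3264 CPM in OG. The 5 basal markers tested had 1 higher (Bcam) and 1 lower (Itga6).

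**Figure D5:**
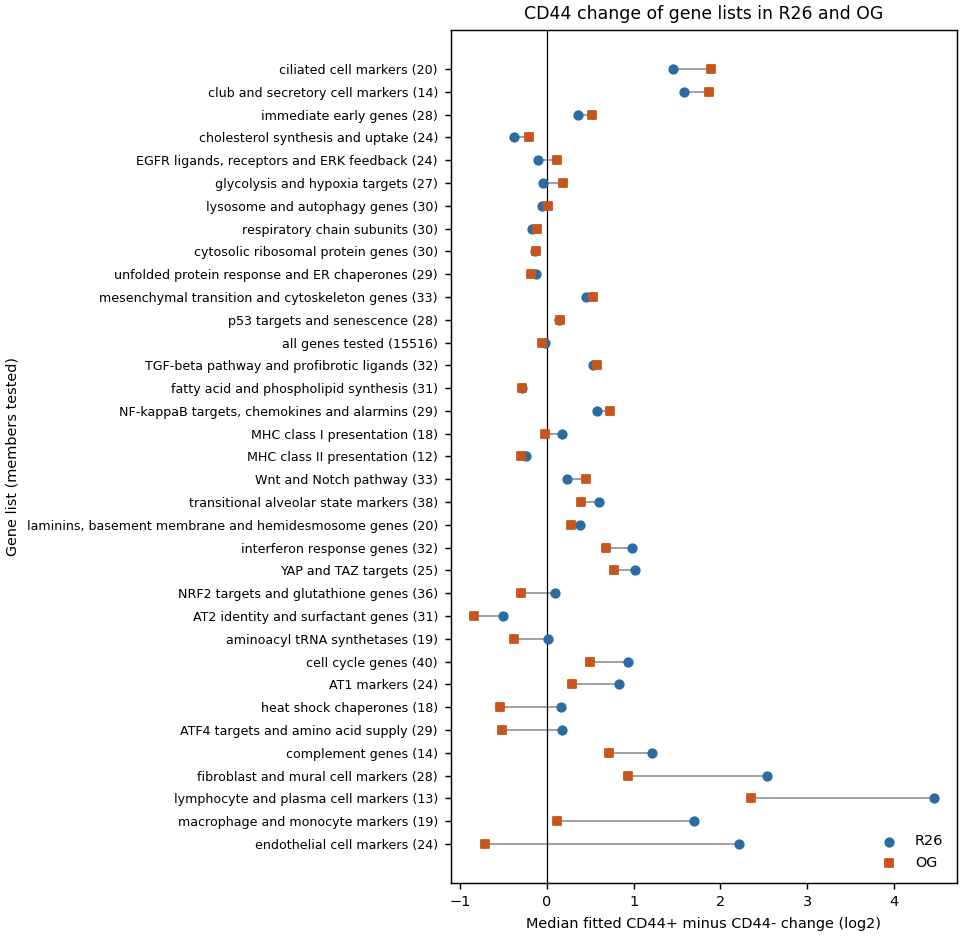
Median fitted log2 change from CD44- to CD44+ over the tested members of each list with at least 10 of them, circles for R26 and squares for OG, ordered by the median interaction. The heat shock, ATF4, NRF2, endothelial, MHC class I and tRNA synthetase medians are above 0 in R26 and below 0 in OG. With the OG reference library the NRF2 and tRNA synthetase medians in R26 are -0.008 and -0.089, and the MHC class I median in OG is 0.028. The medians of ciliated and club markers are the higher in OG. For the NF-kappaB, Wnt and Notch, TGF-beta, mesenchymal and p53 lists the OG median lies above the R26 median although the median interaction is negative, and for the unfolded protein response list the opposite holds.

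Matrix and adhesion genes had interactions of both signs, beside 9.34% higher and 22.7% lower over all genes. Of 20 laminins, basement membrane and hemidesmosome genes, 5 were higher and 9 lower. Itgb4 (integrin beta 4, CD104), which the gate selected against, rose from 6.78 ± 0.378 to 13.8 ± 4.10 CPM in R26 and from 24.9 ± 1.80 to 94.8 ± 5.64 CPM in OG, and Lamb3, a chain of its ligand laminin 332, changed by -0.18 and 0.47. Mesenchymal transition and cytoskeleton genes had 13 of 33 higher and 12 lower. Cdh1, E-cadherin, changed by -0.21 in R26 and 0.41 in OG, Mmp14, a membrane metalloproteinase, by 0.43 and 1.20, and Zeb2, a mesenchymal repressor, by 2.92 and 1.30. The TGF-beta list had 7 of 32 higher, among them Smad7 (0.67 ± 0.08), and 12 lower, among them Tgfb2 (-1.64 ± 0.16). YAP and TAZ targets had 5 of 25 higher and 10 lower, and Wnt and Notch genes 8 of 33 higher, among them Porcn (0.83 ± 0.13), and 12 lower, among them Notch3 (-1.64 ± 0.14), which also marks mural cells. With the OG reference library the TGF-beta split was 10 and 9, that of Wnt and Notch genes 9 and 8 and that of the laminin list 8 and 8, and with total counts only the mesenchymal split was 11 and 14.

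Among genes of immune recognition most called interactions were lower in OG, as they were over all genes (3525 of 4974). Of 32 interferon response genes, 23 rose in R26 and 24 in OG, with 4 interactions higher and 9 lower, Ifit1 at -1.52 ± 0.28 and Irf1 at 0.52 ± 0.09. MHC class I genes had 2 of 18 higher and 6 lower, led by H2-Q7 (-1.26 ± 0.08), and MHC class II genes 3 of 12 higher and 6 lower. With the OG reference library the interferon split was 6 and 6, that of class I 4 and 4 and that of class II 4 and 1, so these lists have no direction that holds under every scaling. Complement genes had 1 of 14 higher, Clu, and 9 lower, among them Cfb (-1.15 ± 0.13) and C2 (-1.74 ± 0.25), and 10 rose in R26 and 9 in OG.

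Glycolysis and hypoxia targets had 10 of 27 higher and 4 lower, beside 9.34% higher and 22.7% lower over all genes. Pfkl, the liver phosphofructokinase, was among the reversed genes named above, and Pgk1 was an exception (-1.82 ± 0.15). Respiratory chain subunits had 5 of 30 higher and 1 lower, and cytosolic ribosomal proteins 5 of 30 higher and none lower. Their medians of 0.04 and 0.03 are within the range over which the scaling moved the median of all genes. The number that fell in R26 ran from 6 to 22 and from 6 to 19 over the scalings. Lysosome and autophagy genes had 12 of 30 higher, among them Ctsl (0.78 ± 0.08), and 8 lower, among them Sqstm1 (-0.64 ± 0.06), an autophagy receptor and NRF2 target, and the split turned to 7 and 11 with total counts only. The p53 and senescence list had 6 of 28 higher and 9 lower, and 7 and 7 with the OG reference library.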

How the data were processed

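The authors sequenced RNA of 16 sorted AT2 cell samples. Per the labels' protocols, ribosomal RNA was depleted and the libraries keep strand. The deposited file holds raw whole-number counts per gene and library. Per the submitters' processing notes the genome build was mm10 and the aligner Bowtie2; the counting program, annotation and strand setting are not given in the sources used here, so reads of overlapping or antisense genes cannot be told apart. Symbols came from RefSeq for 25275 of 27179 identifiers (93.0%). A single gene without a symbol held 7.32% of the counts.

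Genes passing edgeR's filterByExpr (minimum count 10) were scaled by TMM and fitted with edgeR 4.0.16 in R 4.3.3 (robust quasi-likelihood F test) with a block for each of 8 animals and a CD44 effect per prefix. The interaction is the OG effect less the R26 effect. P-values were adjusted by Benjamini-Hochberg over 15516 genes, with a threshold of 0.05. Per-animal changes use log2 CPM with a prior count of 2. A reversed gene passed all 3 tests with opposite signs. Alternatives used limma 3.58.1 and DESeq2 1.42.0, other scalings and filters, and each animal left out.

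The blocks come from animal numbers in the column names, shared by both fractions. Deviations of the fractions of an animal correlated at 0.126 to 0.24 in R26 and 0.02 to 0.097 in OG. Fractions of different animals correlated at -0.201 to 0.107 in R26 and -0.076 to 0.029 in OG. The ranges overlap in OG, so the pairing of the OG columns rests on their names. The labels do not say whether animals shared a litter or sort day. Counts for 15380 genes were simulated with an animal effect of SD 0.2 in log2. Of the planted interactions, 94% of 100 of 2-fold and 66% of 100 of 1.5-fold were recovered. False calls made up 9.09% of calls, a share above the adjusted p threshold. Far fewer interactions were planted than the 4974 called in the data. The simulation therefore does not give the false share of those calls, and it cannot show how their signs depend on the scaling.

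The members and the 39 gene lists were chosen with earlier results of these data known. Genes were named as Sftpc and the sorting antigens, the 10 largest interactions in each direction at a mean log2 CPM of at least 4, the same with at least 16 CPM in both CD44- groups, the 10 reversed genes in each direction with the largest smaller change, and up to 4 members per list with the smallest adjusted p plus exceptions. Mthfd2, Chac1, Nqo1, Txnrd1, Hspb1, Nfe2l2, Hmox1, Foxj1 and Esam fall outside that rule and were chosen after their values were seen.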

Additional observations from a re-analysis of the deposited data

Results flagged for a closer look

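The difference between prefixes was tested by the interaction itself. It was called for 1449 genes higher and 3525 lower in OG, and 284 genes rose in R26 and fell in OG while 188 did the opposite. Among stress and secretory genes the log2 interaction was -2.996 for Slc7a11, -1.63 for Srxn1, -1.43 for Gclm, -1.86 for Hsph1, -1.46 for Atf5, -2.24 for Mthfd2 and -1.73 for Ptprn. Among genes with a more positive change in OG it was 0.81 for Ctsh, 0.93 for Sdc1, 0.97 for Socs3, 1.51 for Tgfbi, 1.26 for Mxd1, 1.26 for Cd24a, 1.12 for Junb, 1.15 for Nfkbia, 1.63 for Slc7a2, 0.90 for Itgb4 and 0.59 for Clu. AT2 genes and alarmins gave -1.85 for Lyz2, -1.25 for Il33, -2.08 for Acoxl and -1.01 for Sftpa1. Alveolar type 1, transitional, stromal and cycle genes gave -1.72 for Cldn4, -1.96 for Cav1, -2.20 for Rtkn2, -2.03 for Spock2, -4.29 for Cdh5, -3.36 for Tnxb and -1.83 for Mki67.

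In 5 of the 60 groups of 4 animals checked, 1 animal lay far from the other 3 in its log2 CD44 change by Dixon's criterion, which chance meets in about 1 group in 20. OG animal 3 had the deepest fall of Ptprn (-0.96), the smallest rise of Ctsh (0.31) and the lowest change of Spock2 (-0.14). R26 animal 1 had the deepest fall of Socs3 (-0.56), and R26 animal 2 had the smallest rise of Cd24a (0.27). Each of these animals except R26 animal 2 holds a library that stood apart on principal component 2.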

How the results depend on the processing

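Calls shared with an alternative kept their direction in each of the 27 alternatives run; their number did not hold. With a 1.5-fold minimum 105 interactions were higher and 877 lower in OG (141 and 776 with DESeq2's size factors), 20 and 1 genes remained reversed in the respective directions (18 and 2), the R26 CD44 calls were 2178 (2128) and the OG CD44 calls 2077 (2084). TMM against OG animal 7 CD44- gave 2998 higher and 2179 lower, with 148 genes that rose in R26 and fell in OG and 583 the other way. Total counts only gave 504 and 84 reversed genes, DESeq2's size factors 297 that fell in R26 and rose in OG, and DESeq2's Wald test 2087 lower and 129 that rose in R26 and fell in OG. Without the replicate block the calls were 1019 higher and 2806 lower, and 107 genes fell in R26 and rose in OG. Leaving out 1 animal gave 1121 to 2663 higher, 2105 to 3523 lower, 142 to 311 reversed calls, rose in R26 and fell in OG, and 128 to 497 reversed calls, fell in R26 and rose in OG. Each omission of an R26 animal (1, 2, 7 or 8) moved the higher and lower counts to 2273 to 2663 and 2105 to 2360, but with the TMM reference library kept, which animal 7 supplies, leaving out R26 animal 1, 2 or 8 gave 1287 to 1430 and 3116 to 3523. The median of the basal markers less that of all genes, -0.744 without OG animal 3, became 0.145 without R26 animal 1 and 0.175 without R26 animal 1 and OG animal 3, with 5 markers tested. The alternatives with another reference library, DESeq2's factors with the minimum, both animals left out and the kept reference were chosen after seeing the data. For 30 genes followed through the 27 alternatives, 800 values held and 7 of Cd44 passed the threshold. Another 3 (Itgb4 and Clu) lost it with the 1.5-fold minimum. Most of these genes were chosen for large interactions in these data, so the 800 values do not describe the called genes at large. Of all 4974 calls, 96.7% were shared with limma voom, 72.9% with the OG reference library and 65.6% with DESeq2's Wald test. The 1.5-fold minimum kept 19.7%. The cause was not tested where not named. Genes under about 1 CPM rest on few counts.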
